A study of Homo sapiens with 12 samples.

Results

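The ISG15 conjugation pathway was followed through 5 genes, ISG15, UBA7, UBE2L6, HERC5 and USP18, out of 18404 genes that the platform annotation ties to a probe set of their own. The 5 genes were picked by name, for their known roles. Each had 1 such probe set, so no choice between probe sets was needed. The levels came from 12 Affymetrix ST arrays of total RNA from NB4 cells. NB4 is an established human line of acute promyelocytic leukemia whose cells mature into granulocyte-like cells under all-trans retinoic acid (ATRA). The control arm held wild type NB4, with a single array untreated and a single array after ATRA, and cells with a scrambled shRNA, with 2 arrays per state. The knockdown arm held cells with shRNA1, with 2 arrays per state, and cells with shRNA2, with 1 per state. Both shRNAs are directed at HOTAIRM1, a noncoding transcript from the HOXA locus. ATRA was given at 0.5 uM for 96 hours, and each of the 4 combinations of arm and state has 3 arrays. All cells with an shRNA, scrambled or not, were GFP-sorted after lentiviral transfer and derived from single cells, and the wild type cells carried no vector. The labels call the duplicates biological without saying whether they were separate clones. The p values therefore measure the spread among these arrays only, which may be technical in part.

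ISG15 is a small protein related to ubiquitin that interferon induces and that is joined to other proteins in a chain of steps. UBA7 is the activating enzyme (E1), UBE2L6 the conjugating enzyme (E2) and HERC5 the main human ligase (E3), while USP18 is the protease that removes ISG15 again. USP18 also binds the interferon receptor subunit IFNAR2 and damps signalling from it. UBA7, also called UBE1L, is known from earlier work as a gene that retinoic acid induces in promyelocytic leukemia cells, where its product was linked to loss of the PML-RARA fusion protein. The question put to the arrays here was whether the genes of each step moved with ATRA, and whether they did so alike in control and knockdown cells.

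RefSeq windows around the gene start, of build GRCh38.p14, were found for 3 of the 5 genes, ISG15, UBE2L6 and HERC5. They are shown because the interferon-stimulated response element, the site of interferon-activated transcription factors, can be read in such windows. The core searched was GAAA, 2 bases of any kind and GAAA again, on both strands. A longer form with 3 copies of GAAA at the same spacing was added after the windows were read, and it overlaps the core. Capitals mark matches to either form, and each line gives the 250 bases before the start, 5′ to 3′ on the strand of the gene. The ISG15 window lies at chr1:1013247-1013496 on the plus strand, that of HERC5 at chr4:88456869-88457118 on the plus strand and that of UBE2L6 at chr11:57567936-57568185 on the minus strand.
ISG15: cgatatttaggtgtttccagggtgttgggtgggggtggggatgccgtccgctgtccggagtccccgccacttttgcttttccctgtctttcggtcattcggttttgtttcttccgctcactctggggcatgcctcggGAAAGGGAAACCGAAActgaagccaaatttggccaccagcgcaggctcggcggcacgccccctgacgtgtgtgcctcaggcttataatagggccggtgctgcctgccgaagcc
HERC5: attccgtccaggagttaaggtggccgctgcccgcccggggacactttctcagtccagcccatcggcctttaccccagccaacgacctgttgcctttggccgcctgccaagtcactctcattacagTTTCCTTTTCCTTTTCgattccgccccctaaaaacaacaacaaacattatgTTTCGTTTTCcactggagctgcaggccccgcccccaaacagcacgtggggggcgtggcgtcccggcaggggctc
UBE2L6: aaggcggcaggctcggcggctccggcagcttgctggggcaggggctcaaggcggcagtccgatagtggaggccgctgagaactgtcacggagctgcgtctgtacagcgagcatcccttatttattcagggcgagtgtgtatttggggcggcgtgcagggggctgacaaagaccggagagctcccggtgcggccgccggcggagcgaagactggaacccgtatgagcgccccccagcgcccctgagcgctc

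In ISG15 the longer form began 113 bases before the start, on the strand of the gene, and read GAAAGGGAAACCGAAA. In HERC5 it began 125 bases before the start, on the opposite strand, and another match to the core began 74 bases before it, read as TTTCGTTTTC. These letters were not in this UBE2L6 window, nor in a second RefSeq window of that gene. Over all 35116 windows of 300 bases (250 before and 50 after the start), 3.57% held the core and 0.154% the longer form. A match describes letters only, and these arrays did not measure binding.

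The number of arrays limits the precision of every value below. Deposited values ran from 2.67 to 14.63 on the log2 scale, and array medians from 7.73 to 7.81. The untreated scrambled replicate 2 array stood apart on the first principal component (66.7% of the variance), at -10.6 against -41.2 to -32.5 for the other untreated arrays, and TGM2, a transglutaminase that retinoic acid induces, was at 12.86 there against 7.93 to 8.30. For the 5 genes, values that this array moves by more than 1.5 times or whose call it changes are given without it. Promyelocyte markers (5 measured of 6) had mean log2 levels of 10.06 to 11.57 on all arrays. Of these 5, 0 were called with ATRA in control cells and 1 in knockdown cells, CTSG, with a change of -2.45 (limma adjusted p = 0.00356). All 6 markers of granulocyte maturation rose with ATRA in both arms. Lymphoid markers (7 measured of 8) had mean log2 levels of 7.41 to 8.02 and erythroid markers (4 of 6) of 7.35 to 7.57. Of the 7 lymphoid markers 2 rose in control cells and 1 in knockdown cells. NKG7, a granule protein of cytotoxic lymphocytes, stood at 11.02 to 11.76 untreated and at 12.33 to 12.76 after ATRA, and rose by 0.91 (limma adjusted p = 0.000675) and 1.33 (adjusted p = 0.000222). Monocyte markers (5 measured of 6) had mean log2 levels of 6.90 to 7.20 on untreated arrays and 7.71 to 8.06 after ATRA, with 4 of 5 called higher in control cells and 3 of 5 in knockdown cells. They moved with the same contrast as the genes below, and their part in it was not tested. In bulk RNA, fewer cells of a type and less RNA per cell cannot be told apart.

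In control cells ATRA raised 4 of the 5 genes, and in knockdown cells it raised 2. UBA7 and UBE2L6, the E1 and the E2, rose in both kinds of cells. ISG15 and USP18 rose in control cells and did not pass the test in knockdown cells, and HERC5 passed in neither. Calls are from limma at a Benjamini-Hochberg adjusted p under 0.05 over all 18404 genes. By the same rule 15.2% of all genes were called higher and 20.9% lower with ATRA in control cells, and 10.1% higher and 14.7% lower in knockdown cells. The median log2 change of the 5 genes was 1.37 in control cells, against 0.05 over all genes, and 1.08 in knockdown cells, against -0.03 over all genes. A line below is a kind of cell with 1 replicate number, read untreated and after ATRA. The labels do not say whether both arrays of a line came from 1 culture. Of the 30 changes of a gene within a line, 28 were above 0. The share above 0 among all genes was not counted, so no result is drawn from this number. The 5 genes were read on the same arrays, so these changes are not separate observations. Within scrambled and shRNA1 cells, the pairing of arrays rests on the replicate numbers alone.

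**Figure D1:**
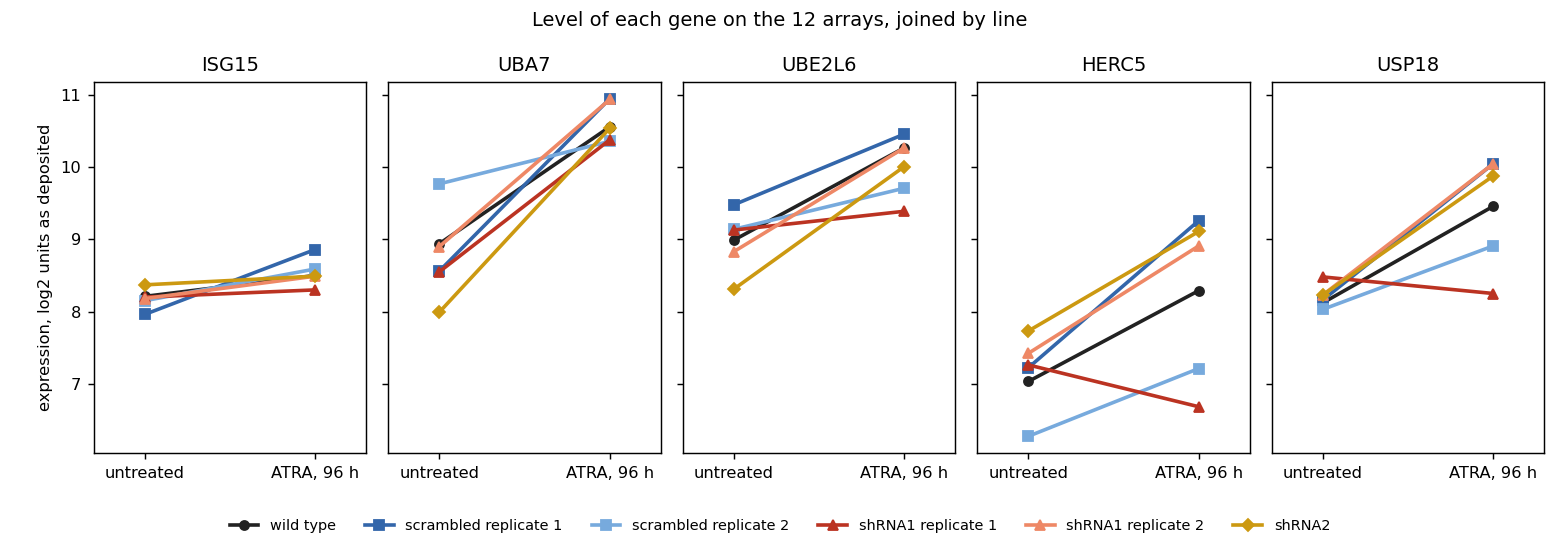
Log2 level (vertical axis) of the 5 genes on each of the 12 arrays, untreated and after 96 hours of ATRA, with a line joining the arrays of each cell line. UBA7 and UBE2L6 rose along all 6 lines, while HERC5 and USP18 ran downward in shRNA1 replicate 1; levels of different genes come from different probes and are not to be compared.

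UBA7, the E1 that starts the chain, had the largest mean change of the 5 genes in both arms. Its log2 level in untreated control cells was 8.94 in wild type, 8.56 in scrambled replicate 1 and 9.77 in scrambled replicate 2. After ATRA it was 10.56, 10.95 and 10.36 in the same order. The untreated array that stood apart held the highest untreated level, but all ATRA arrays lay above all untreated ones. In untreated knockdown cells UBA7 was at 8.55 and 8.90 in the shRNA1 replicates and at 7.99 in shRNA2, and after ATRA at 10.38, 10.94 and 10.54. Here too the states did not overlap, and the 6 ATRA arrays spanned only 10.36 to 10.95 where the untreated ones spanned 7.99 to 9.77. The share of all genes whose states do not overlap was not counted. No result is drawn from such gaps, here or for the genes below.

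UBA7 rose 2.90-fold in control cells, by 1.54 on the log2 scale (SE 0.30, 95% interval 0.88 to 2.19, limma adjusted p = 0.00238). It rose 4.41-fold in knockdown cells, by 2.14 (SE 0.30, 95% interval 1.48 to 2.80, adjusted p = 0.000646). The change per line ran from 0.59 in scrambled replicate 2 to 2.55 in shRNA2. Without the untreated scrambled replicate 2 array, the rise in control cells was 1.88 (adjusted p = 0.000294). The UBA7 calls of both arms held when any 1 of the 12 arrays was left out, with rises of 1.27 to 1.88 in control cells and 1.90 to 2.35 in knockdown cells.

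UBE2L6, the E2 that takes ISG15 over from UBA7, rose by less. Its log2 level in untreated control cells was 8.99 in wild type, 9.48 in scrambled replicate 1 and 9.14 in scrambled replicate 2, and after ATRA 10.27, 10.46 and 9.71. In untreated knockdown cells it was 9.13 and 8.83 in the shRNA1 replicates and 8.31 in shRNA2, and after ATRA 9.39, 10.27 and 10.01. The states did not overlap within either arm, though shRNA1 replicate 1 after ATRA lay below the untreated scrambled replicate 1 array.

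UBE2L6 rose 1.92-fold in control cells, by 0.94 on the log2 scale (SE 0.27, 95% interval 0.35 to 1.52, limma adjusted p = 0.0176). In knockdown cells it rose 2.20-fold, by 1.14 (SE 0.27, 95% interval 0.55 to 1.72, adjusted p = 0.00894). The smallest change was 0.26, in shRNA1 replicate 1, and the largest 1.70, in shRNA2. The call in control cells was lost without untreated wild type (0.83, adjusted p = 0.0698), without wild type after ATRA (0.88, adjusted p = 0.0547) or without scrambled replicate 1 after ATRA (0.78, adjusted p = 0.0647). It held without the untreated scrambled replicate 2 array (0.91, adjusted p = 0.0409), and in knockdown cells it held without any 1 of the 12 arrays.

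ISG15, the modifier itself, moved least among the 5 genes in both arms. Its log2 level in untreated control cells was 8.21 in wild type, 7.96 in scrambled replicate 1 and 8.15 in scrambled replicate 2, and after ATRA 8.50, 8.86 and 8.59. In untreated knockdown cells it was 8.20 and 8.18 in the shRNA1 replicates and 8.37 in shRNA2, and after ATRA 8.30, 8.49 and 8.49. The states did not overlap in control cells. In knockdown cells shRNA1 replicate 1 after ATRA lay below untreated shRNA2.

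ISG15 rose 1.45-fold in control cells, by 0.54 on the log2 scale (SE 0.11, 95% interval 0.30 to 0.77, limma adjusted p = 0.00268). That call held without any 1 of the 12 arrays, at 0.43 to 0.61. In knockdown cells its log2 change was 0.18 (SE 0.11, 95% interval -0.06 to 0.41, adjusted p = 0.281). All 6 lines changed upward, from 0.11 in shRNA1 replicate 1 to 0.89 in scrambled replicate 1.

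HERC5, the ligase, varied most between lines among the 5 genes. Its log2 level in untreated control cells was 7.03 in wild type, 7.22 in scrambled replicate 1 and 6.27 in scrambled replicate 2, and after ATRA 8.29, 9.26 and 7.21. In untreated knockdown cells it was 7.26 and 7.42 in the shRNA1 replicates and 7.73 in shRNA2, and after ATRA 6.68, 8.91 and 9.11. The states overlapped in both arms, in control cells by a single pair of arrays at 7.21 and 7.22, and in knockdown cells because shRNA1 replicate 1 after ATRA lay below all untreated knockdown arrays.

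The log2 change of HERC5 was 1.41 in control cells (SE 0.61, 95% interval 0.09 to 2.74, limma adjusted p = 0.0877) and 0.76 in knockdown cells (SE 0.61, 95% interval -0.56 to 2.09, adjusted p = 0.429). The change of HERC5 was 2.04 in scrambled replicate 1 and -0.58 in shRNA1 replicate 1, and in the other 4 lines it lay between 0.94 and 1.50. The SD of the 6 changes was 0.89, against a median of 0.19 over all genes, and 99.3% of genes had a smaller one. Without the shRNA1 replicate 1 ATRA array HERC5 passed in knockdown cells, at 1.54 (adjusted p = 0.0422), and in control cells, at an unaltered 1.41 with a smaller shared spread (adjusted p = 0.0246). HERC5 also passed in control cells without scrambled replicate 2 after ATRA (1.94, adjusted p = 0.0351). Other arrays moved it the other way. The change in control cells was 1.13 (adjusted p = 0.217) without untreated scrambled replicate 2 and 0.91 (adjusted p = 0.278) without scrambled replicate 1 after ATRA. In knockdown cells it was 0.33 (adjusted p = 0.792) without shRNA2 after ATRA and 0.42 (adjusted p = 0.749) without shRNA1 replicate 2 after ATRA.

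USP18, the protease that takes ISG15 off its targets, had nearly equal levels on the untreated arrays and spread out after ATRA. Its log2 level in untreated control cells was 8.12 in wild type, 8.16 in scrambled replicate 1 and 8.03 in scrambled replicate 2, and after ATRA 9.46, 10.05 and 8.91. In untreated knockdown cells it was 8.48 and 8.23 in the shRNA1 replicates and 8.23 in shRNA2, and after ATRA 8.25, 10.05 and 9.88. The control states did not overlap, and in knockdown cells shRNA1 replicate 1 after ATRA lay among the untreated arrays.

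USP18 rose 2.58-fold in control cells, by 1.37 on the log2 scale (SE 0.39, 95% interval 0.51 to 2.23, limma adjusted p = 0.0189). In knockdown cells its change was 1.08 (SE 0.39, 95% interval 0.22 to 1.94, adjusted p = 0.0684). The call in control cells was lost without untreated wild type (1.38, adjusted p = 0.0521) or scrambled replicate 1 after ATRA (1.08, adjusted p = 0.0713), and held without untreated scrambled replicate 2 (1.33, adjusted p = 0.042). Without the shRNA1 replicate 1 ATRA array USP18 passed in knockdown cells, at 1.65 (adjusted p = 0.00226). A second probe set, annotated to both USP18 and its pseudogene USP41P, ran from 8.10 to 9.17 untreated and from 8.55 to 10.94 after ATRA, and it too fell in shRNA1 replicate 1, from 9.17 to 8.55. In place of the probe set used, it gave a rise of 1.96 in control cells (adjusted p = 0.0132) and a change of 1.21 in knockdown cells (adjusted p = 0.126).

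**Figure D2:**
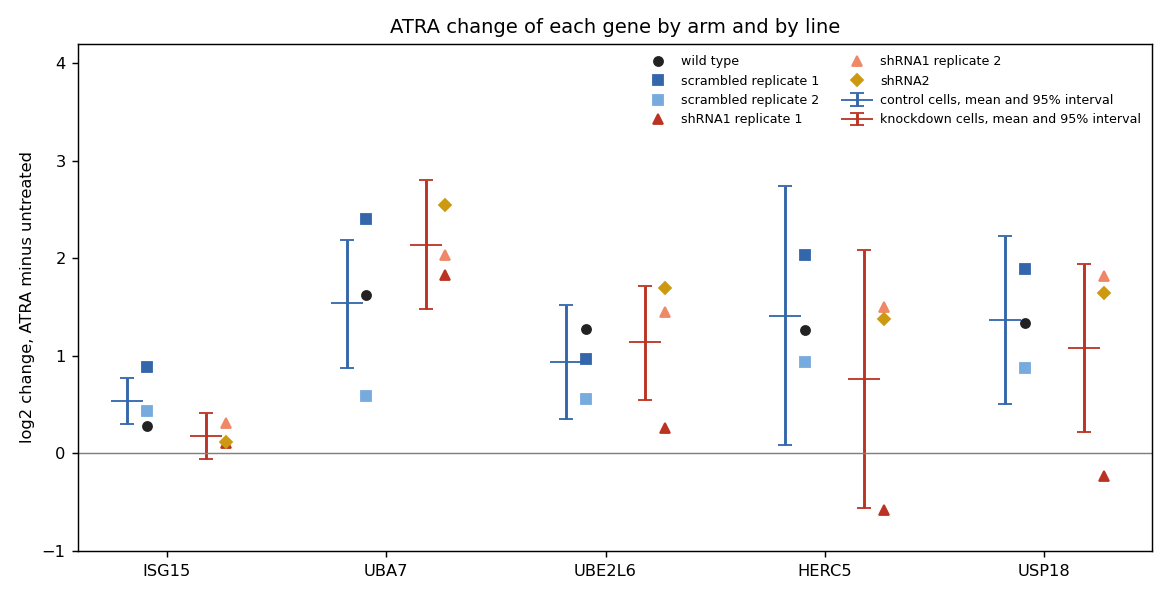
Log2 change with ATRA (vertical axis) of the 5 genes, as the mean and 95% interval of the limma fit in control and in knockdown cells (n = 3 arrays in each state of each arm), with the change of each line as a point beside it. The intervals of HERC5 are the widest, and shRNA1 replicate 1 is the only line with points below 0, at -0.58 for HERC5 and -0.23 for USP18.

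The same lines stood at the ends of the order after ATRA for most of the genes. Scrambled replicate 1 held the highest level of all 5 genes, in USP18 within rounding of shRNA1 replicate 2. The lowest level was that of shRNA1 replicate 1 for 4 genes, and for UBA7 that of scrambled replicate 2 at 10.36, with shRNA1 replicate 1 next at 10.38. In the duplicates of 1 genotype, shRNA1, the change was 0.26 against 1.45 for UBE2L6, -0.58 against 1.50 for HERC5 and -0.23 against 1.82 for USP18, but 1.83 against 2.04 for UBA7. ITGAM, the alpha M integrin subunit and a maturation marker, rose by 2.49 and 2.27 on the log2 scale in shRNA1 replicates 1 and 2, and TGM2 by 5.51 and 5.56. Both genes were chosen after their values were seen, and the other maturation markers were not read line by line. On the first principal component, shRNA1 replicate 1 after ATRA stood lowest of the ATRA arrays, at 20.8. There shRNA1 replicate 2 stood at 24.0, shRNA2 at 28.0 and the control arrays at 34.2 to 43.5. Whether any of this bears on the 5 genes was not tested. Each place in these orders rests on 1 array, so neighbours in the order could not be tested against each other, and the 5 genes, read on the same 12 arrays, are not separate observations.

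Changes were also fitted for each genotype, with the spread taken from the duplicates of scrambled and shRNA1 cells, so that wild type and shRNA2 cells, with 1 array in each state, were assumed to vary like them. UBA7 rose in scrambled cells by 1.49 (limma adjusted p = 0.0405), in shRNA1 cells by 1.93 (adjusted p = 0.0205) and in shRNA2 cells by 2.55 (adjusted p = 0.0396), and its change was 1.62 in wild type cells (adjusted p = 0.0907). ISG15 rose in scrambled cells by 0.67 (adjusted p = 0.0139), while its changes of 0.28 in wild type, 0.21 in shRNA1 and 0.12 in shRNA2 cells did not pass. UBE2L6, HERC5 and USP18 passed in no single genotype. In these fits 4.15% of all genes were called higher in scrambled cells, 5.14% in shRNA1, 2.75% in shRNA2 and 4.42% in wild type cells.

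The next comparison asks whether knockdown cells differ from control cells in these genes. No difference was called for any of the 5 genes in either state, nor for the size of their ATRA responses, by limma. Unadjusted limma p values under 0.05 numbered 0 before ATRA, 0 after it and 1 for the responses among the 5 genes. Among all 18404 genes they numbered 727, 5171 and 2815 in the same order, so 1 of 5 is not set apart from the background. Of all genes, 0% were called before ATRA, 0.0598% after it and 0% for the responses. These comparisons use the same arrays as the ATRA changes above and are not separate evidence.

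Before ATRA, UBA7 differed between knockdown and control cells by -0.61 on the log2 scale (95% interval -1.27 to 0.05) and UBE2L6 by -0.45 (95% interval -1.03 to 0.13). Without the untreated scrambled replicate 2 array the difference of UBA7 was -0.27, and without untreated shRNA2 those of UBA7 and UBE2L6 were -0.36 and -0.23. ISG15 differed by 0.14 (95% interval -0.10 to 0.38), USP18 by 0.21 (95% interval -0.66 to 1.07) and HERC5 by 0.63 (95% interval -0.70 to 1.95), all with a limma adjusted p of 0.999. The difference of HERC5 was 0.34 when untreated scrambled replicate 2 was left out. That of ISG15 was 0.07 without untreated scrambled replicate 1 and 0.08 without untreated shRNA2, and that of USP18 was 0.12 without untreated shRNA1 replicate 1. The lowest untreated knockdown array lay just above the highest untreated control array for USP18 (8.23 against 8.16) and for HERC5 (7.26 against 7.22). The arms overlapped for the other 3 genes. How many of all genes separate the arms in this way was not counted, so no result is drawn from these small gaps.

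After ATRA the arms lay close for UBA7, with means of 10.62 in both, an SD of 0.30 in control and 0.29 in knockdown cells (n = 3 each) and a 95% interval of -0.66 to 0.66 for the log2 difference. ISG15 differed by -0.22 (95% interval -0.46 to 0.02, limma adjusted p = 0.203), with the lowest control array at 8.50 and the highest knockdown array at 8.49. The share of all genes with such a gap was not counted here either. UBE2L6 differed by -0.25 (95% interval -0.84 to 0.33), USP18 by -0.08 (95% interval -0.95 to 0.78) and HERC5 by -0.02 (95% interval -1.35 to 1.30). Without the shRNA1 replicate 1 ATRA array these differences were 0.00 for UBE2L6, 0.49 for USP18 and 0.76 for HERC5, and none passed. Leaving out each array in turn gave -0.47 to 0.00 for UBE2L6, -0.41 to 0.49 for USP18, -0.54 to 0.76 for HERC5 and -0.29 to -0.12 for ISG15, where the value nearest 0 came from leaving out scrambled replicate 1 after ATRA. The interval for HERC5 is wide, so the arrays do not show that the arms were alike for it.

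The difference in response, knockdown minus control, was -0.36 for ISG15 (SE 0.15, 95% interval -0.69 to -0.03), with an unadjusted p of 0.0367 and a limma adjusted p of 0.308. It is the only one of the 5 below an unadjusted 0.05, and it did not pass. The differences were 0.60 for UBA7 (95% interval -0.33 to 1.54), 0.20 for UBE2L6 (95% interval -0.63 to 1.02), -0.29 for USP18 (95% interval -1.51 to 0.93) and -0.65 for HERC5 (95% interval -2.52 to 1.22). So ISG15 and USP18, called in control cells and not in knockdown cells, were not shown to respond differently. Without the shRNA1 replicate 1 ATRA array the differences were 0.13 for HERC5 and 0.28 for USP18, and without the untreated scrambled replicate 2 array those of UBA7 and HERC5 were 0.26 and -0.37. Leaving out each array in turn gave 0.26 to 0.87 for UBA7, -0.03 to 0.45 for UBE2L6, -0.62 to 0.28 for USP18 and -1.17 to 0.13 for HERC5. None of these passed. Between single genotypes, 0 of 30 tests (6 pairs for each of 5 genes) passed limma's adjusted threshold and 2 had an unadjusted p under 0.05. Both were for ISG15, where the response minus that of scrambled cells was -0.46 in shRNA1 and -0.55 in shRNA2 cells. The share of all genes at this unadjusted level was not counted for the pairs, so no result is drawn from these 2 tests. Minus that of wild type cells, the other control, the ISG15 response was -0.07 in shRNA1, -0.16 in shRNA2 and 0.38 in scrambled cells.

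Other genes linked to ISG15, in human or in mouse, moved in both directions. A list of further ligases and proteases, which also held the E2 UBE2E1, had 10 measured genes. Of these, 1 rose and 6 fell in control cells, and 2 rose and 2 fell in knockdown cells, with median log2 changes of -0.32 and -0.17. UBE2E1 was among those that fell in control cells. UBE2E1, HERC6 and the USP genes of this list are counted again in their families below. HERC6 is the main ISG15 ligase of mice, a role not claimed here for the human gene, which is a neighbour of HERC5 in the genome. Human HERC6 rose by 1.59 in control cells (limma adjusted p = 0.0204) and by 1.47 in knockdown cells (adjusted p = 0.0379). Its call in control cells was lost without scrambled replicate 1 after ATRA (adjusted p up to 0.077), and that in knockdown cells without any 1 of 6 arrays (adjusted p up to 0.154). HERC6 changed by 0.16 in shRNA1 replicate 1 and by 2.39 in shRNA1 replicate 2, the same split as for HERC5. TRIM25, a ligase of RIG-I that can also pass on ISG15, rose in knockdown cells by 0.75 (adjusted p = 0.0263, lost without any 1 of 4 knockdown arrays) and had a change of 0.58 in control cells (adjusted p = 0.0577). Of the proteases with reported activity toward ISG15, USP13 fell by 1.13 in control cells (adjusted p = 0.00513) and by 1.08 in knockdown cells (adjusted p = 0.00871), and USP5 fell by 0.65 (adjusted p = 0.000981) and 0.45 (adjusted p = 0.0107). USP21 fell in control cells by 0.65 (adjusted p = 0.00236).

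In control cells UBA7, UBE2L6 and USP18 had the highest ATRA change of their enzyme class over all 12 arrays, and HERC5 came after HERC6. In knockdown cells this held for UBA7 and UBE2L6, while CYLD stood above USP18 and HERC1, HERC3 and HERC6 above HERC5. Leaving out each array in turn gave 1.08 to 1.65 for USP18 and 0.99 to 1.49 for CYLD in control cells, so their order there is not firm. The ranges also overlapped there for UBE2L6 (0.78 to 1.16) and the E2 UBE2O (0.63 to 0.84). Differences between genes were not tested, since each rests on its own probes. Of the 7 other E1 enzymes and subunits measured, 2 rose and 4 fell in control cells and 2 rose and 3 fell in knockdown cells, with a median log2 change of -0.28 in control cells. ATG7, the E1 of autophagy, rose by 0.67 (limma adjusted p = 0.00103) and UBA3, a catalytic subunit for NEDD8, by 0.47 (adjusted p = 0.00481) in control cells. NAE1, the partner of UBA3, fell by 1.40 (adjusted p = 0.00019), MOCS3 of the URM1 pathway fell by 0.70 (adjusted p = 0.00543), SAE1 of the SUMO pathway fell by 0.53 (adjusted p = 0.0025) and the ubiquitin E1 UBA1 fell by 0.28 (adjusted p = 0.0147, 0.0609 without wild type after ATRA). UBA6, the second ubiquitin E1, changed by -0.08 (adjusted p = 0.432).

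**Figure D3:**
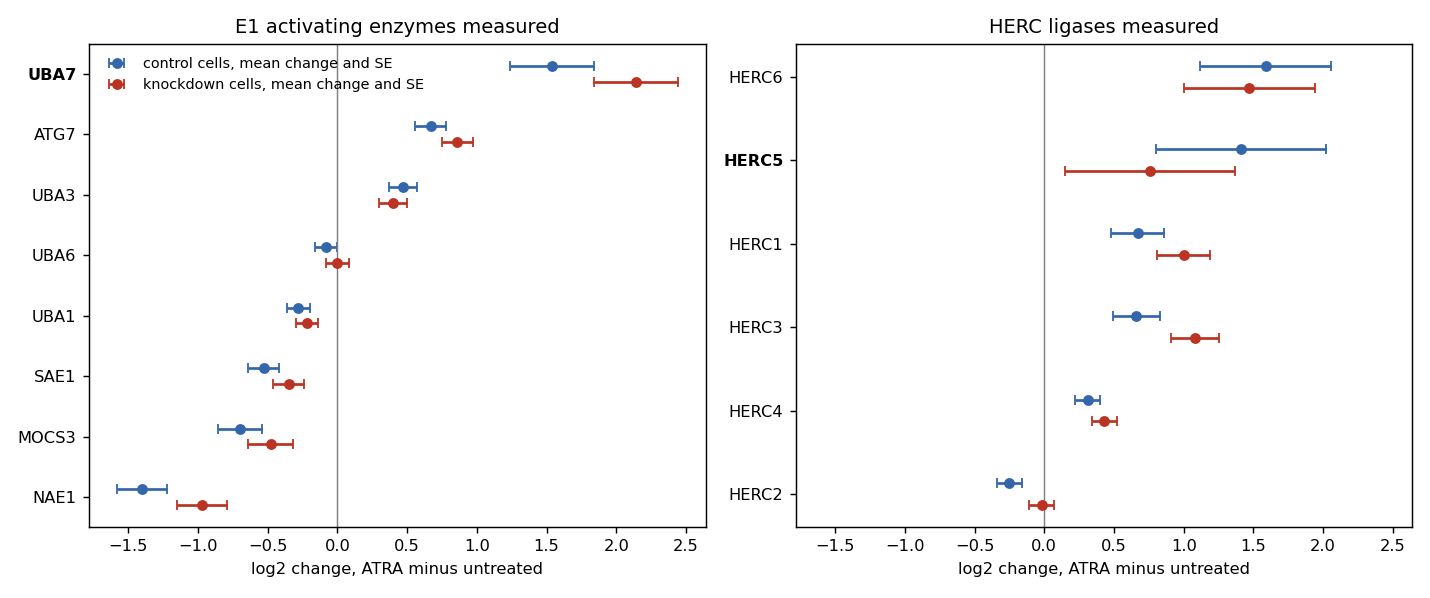
Log2 change with ATRA (horizontal axis) of each measured E1 subunit and HERC ligase in control and knockdown cells, as the mean of the limma fit with its SE (n = 3 arrays in each state of each arm); UBA7 and HERC5 are in bold. UBA7 lies to the right of the other E1 subunits at 1.54 and 2.14, and HERC5 has the widest error bars among the HERC ligases.

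Of the 27 other E2 genes measured, 2 rose and 9 fell in control cells, and 2 rose and 7 fell in knockdown cells. Both that rose were UBE2O, at 0.70 in control cells (limma adjusted p = 0.00244), and UBE2H, at 0.42 (adjusted p = 0.00799). UBE2T, which serves crosslink repair, fell by 0.93 (adjusted p = 0.000144). UBE2L3, the ubiquitin E2 closest to UBE2L6, had no probe set of its own by the rule used and was not analysed here. Among the 5 other HERC ligases, HERC1, HERC3, HERC4 and HERC6 rose in both arms, HERC3 by 0.66 and 1.08, and HERC2 had a change of -0.25 in control cells (adjusted p = 0.0568) and -0.02 in knockdown cells. HERC1 rose by 0.67 and HERC4 by 0.31 in control cells. There the call of HERC1 was lost without untreated wild type or untreated scrambled replicate 1, and that of HERC4 without untreated scrambled replicate 1 or scrambled replicate 2 after ATRA.

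Of the 48 other proteases of the USP family, 2 rose and 20 fell in control cells, and 5 rose and 11 fell in knockdown cells. The 2 were CYLD, which removes linear and K63-linked ubiquitin and rose by 1.19 (limma adjusted p = 0.00231), and USP25, which rose by 0.47 (adjusted p = 0.0296, lost without any 1 of 4 control arrays). USP18 and CYLD were thus the USP genes that rose by more than 1 on the log2 scale in control cells. In the other direction, USP13 had a change of -1.13 there. Of the 8 other ubiquitin-like modifiers measured, 0 rose and 3 fell in control cells by limma, among them FAU, a fusion of a ubiquitin-like domain with a ribosomal protein, by 0.63 (adjusted p = 0.000211).

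Among 16 measured genes whose proteins are known to carry ISG15, 5 rose and 4 fell in control cells, and 4 rose and 3 fell in knockdown cells. RIGI, the sensor of viral RNA, rose by 2.38 (limma adjusted p = 0.0015) and by 2.11 (adjusted p = 0.00423), and EIF2AK2, the kinase PKR, by 1.22 (adjusted p = 0.00394) and 0.99 (adjusted p = 0.0159, lost without shRNA1 replicate 2 or shRNA2 after ATRA). PCNA, the sliding clamp of replication, fell by 1.01 (adjusted p = 0.000192) in control cells and by 0.48 (adjusted p = 0.0162, lost without either shRNA1 replicate 1 array) in knockdown cells. PLCG1, a phospholipase C, fell by 0.82 (adjusted p = 0.000653) in control cells and by 0.54 (adjusted p = 0.00993) in knockdown cells.

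Partners of free ISG15 and of USP18 were measured for 7 genes, of which 4 rose and 1 fell in control cells and 5 rose and 1 fell in knockdown cells. Secreted ISG15 binds the integrin LFA-1, whose beta subunit ITGB2 rose by 1.61 (limma adjusted p = 0.00122) and 2.05 (adjusted p = 0.000595). Its alpha subunit ITGAL rose in knockdown cells by 0.79 (adjusted p = 0.0372, lost without any 1 of 5 arrays) and had a change of 0.45 in control cells (adjusted p = 0.174). IFNAR2, to which USP18 binds, rose by 0.70 (adjusted p = 0.00192) and 0.84 (adjusted p = 0.00108). LRRC25, which helps remove RIG-I that carries ISG15, rose by 1.82 (adjusted p = 0.000539) and 2.08 (adjusted p = 0.000554), while SKP2, a ligase subunit that targets USP18, fell by 0.89 (adjusted p = 0.00112) and 0.84 (adjusted p = 0.00235).

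By a measure that counts the size of changes as well as their pattern, the 5 genes did not all lie close together. For each, the 3 most similar genes were found by the root mean square (RMS) difference of the 12 log2 values after centring each gene on its mean. Values were not scaled, so genes that vary by unlike amounts lie apart even where their patterns match. Nearest to UBA7 were ITGB2 (RMS 0.13), the inhibitory receptor SIRPA (0.18) and SIGLEC12 (0.19), where UBA7 itself varied about its mean by an RMS of 1.01. Nearest to USP18 were CMPK2 (0.22), HERC6 (0.22) and the 2-5A synthetase relative OASL (0.27), all of them genes that interferon induces, with USP18 varying by 0.78. Nearest to HERC5 were USP18 (0.38), the death ligand TNFSF10 (0.40) and HERC6 (0.44), with HERC5 varying by 0.94. The antiviral factor TRIM5 (0.20), the butyrophilin BTN3A3 (0.21) and CLEC2B (0.25) were nearest to UBE2L6, which varied by 0.63. ISG15 varied by 0.23 only, and SIGLEC11 (0.10), MX1 (0.10) and CEACAM21 (0.11) were nearest. Among the 5 genes themselves, the smallest RMS differences were 0.38 between HERC5 and USP18 and 0.39 between UBE2L6 and USP18, and the largest was 0.96, between UBA7 and HERC5.

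**Figure D4:**
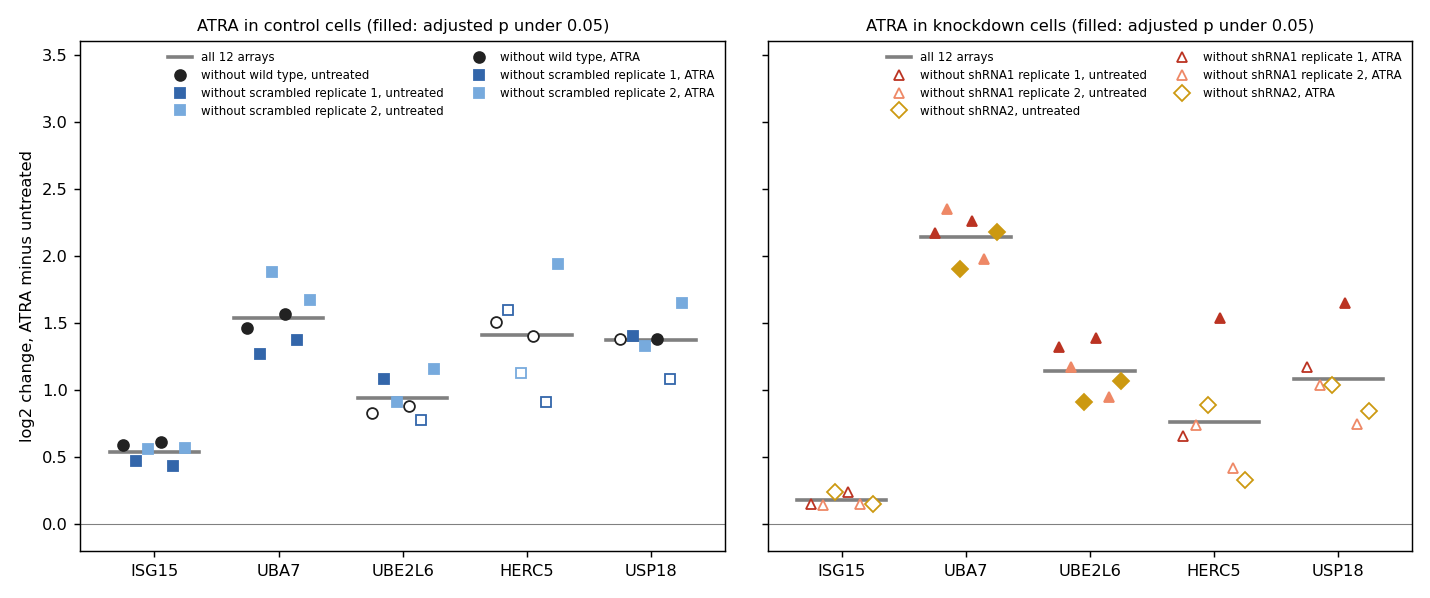
Log2 change with ATRA (vertical axis) of the 5 genes in control cells and in knockdown cells when 1 array of that arm was left out, with the value over all 12 arrays as a grey line and filled symbols for a limma adjusted p under 0.05. All symbols of UBA7 are filled in both arms, and in knockdown cells HERC5 and USP18 are filled only without the shRNA1 replicate 1 ATRA array, at 1.54 and 1.65.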

How the data were processed

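Total RNA was labelled as biotinylated cDNA on 12 arrays. The deposited values are log2 expression per probe set, and RMA and limma are named without versions or settings, per the submitters' processing notes. The values were used as deposited. Genes were named through the platform annotation, by Entrez identifier. Of 32321 probe sets, 19158 had 1 gene, 1388 several and 11775 none listed. The brightest probe set on average over 12 arrays stood for each gene, which gave 18404 genes with no filter on low values.

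Tests used limma 3.58.1 under R 4.3.3 (lmFit on 4 arm means, eBayes, 8 residual degrees of freedom; 8 means and 4 residual degrees of freedom for genotypes). The two-sided p values were adjusted over all genes within a contrast (Benjamini-Hochberg), with a threshold of 0.05. The fits were tested on simulated data. A positive value means higher after ATRA, or higher in knockdown cells, and 95% intervals are those of the moderated fit. Named genes were the 5 members, the 3 nearest profiles of each, and, from fixed lists, called genes with the largest changes and all E1 and HERC genes. Members and lists were chosen with earlier results of these data known. UBE2H, USP25, ITGAL, ITGAM and TGM2 were named after their values were seen. The annotation lists no probe set as HOTAIRM1, so the knockdown was not checked here. Alternatives were the probe set rule, a filter on dim genes, 2 other scalings, 2 variance settings, array weights, blocks for the line and leaving out arrays.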

Additional observations from a re-analysis of the deposited data

How the results depend on the processing

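The number of genes called with ATRA in control cells, 4, was 2 without both wild type arrays and 2 to 5 when each array was left out in turn; in knockdown cells, 2 became 2 to 4 on leaving out each array. With knockdown against control in either state, and for the difference in response, 0 were called under every alternative run. Quantile normalization, centring each array on its median, averaging probe sets, leaving out the dimmest genes (no member among them) and eBayes with trend and robust settings kept all counts of calls. Array weights called 5 and 3 genes in control and knockdown cells.

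The replicate numbers were not taken as pairs, because untreated and ATRA arrays of a line deviated together by r of -0.17 to 0.23 and not all exceeded 0.1. With the line as a fixed replicate block, HERC5 also passed in control cells (1.41, adjusted p = 0.0247), so 5 were called there and 2 in knockdown cells. Line as a random block (consensus correlation 0.04) changed no count.

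Chosen after seeing the data, leaving out both shRNA1 replicate 1 arrays called 5 genes in control and 3 in knockdown cells, and leaving out both scrambled replicate 2 arrays called 4 and 2. Causes were not tested.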
